A study of Saccharomyces cerevisiae with 4 samples.

Results

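NRD1 and 4 further budding yeast genes whose proteins act in transcription termination, NAB3, SEN1, PCF11 and HRP1, were examined for their RNA levels when the poly(A) polymerase gene TRF4 was absent. The 5 genes were named by their systematic identifiers (YNL251C, YPL190C, YLR430W, YDR228C and YOL123W), not by their values, out of 7445 features in the count table, and all 5 passed the filter on low counts. Both groups were Saccharomyces cerevisiae of the W303 background, grown at 25 °C in YPDA, a rich glucose medium, and taken in exponential growth at an optical density of 0.8. The trf4Δ group (trf4::HphMX4, TRF4 replaced by a drug resistance cassette) had 2 libraries and the wild type had 2 libraries. They were made from total RNA after removal of ribosomal RNA and sequenced as paired ends of 76 bases. Nothing in the labels says that the 2 libraries of a group came from separate cultures, so the p-values measure only the spread between these libraries, which may be technical.

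RNA polymerase II of budding yeast stops by either of 2 main routes. At most protein-coding genes the cleavage and polyadenylation machinery cuts the transcript at its 3′ end. At small nucleolar RNA genes and at short unstable transcripts, Nrd1 and Nab3 bind sequence motifs in the emerging RNA, and the helicase Sen1 releases the polymerase early. Nrd1 reads the phosphorylated C-terminal domain of the polymerase through a CTD-interacting domain, and the same domain can contact Trf4, the polymerase of the TRAMP complex that hands the released RNA to the nuclear exosome. Pcf11 carries a related CTD-interacting domain and works in both routes, and Hrp1 binds RNA in cleavage factor I. NRD1 is known to limit its own mRNA, since the Nrd1 protein ends part of the transcription of its own gene near the start, and attenuation of this kind is also known for HRP1.

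The total count per library ranged from 53516242 to 57964567. At these depths the counting error of the 5 genes was small, between 0.476% and 1.52% of the count on average within a group. These percentages cover counting error only and not the spread between libraries. Levels are given as CPM, counts scaled to the same library total, with library sizes corrected by the trimmed mean of M-values (TMM). The deleted gene, listed as PAP2 (YOL115W), held 8102 and 8468 counts in wild-type cells and only 21 and 40 in the deletion strain. A library mixes all cells of a culture, so a change in every cell and a change in the share of cells that express a gene could not be told apart.

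Of the 5 genes, NRD1 was the one whose RNA differed most between the strains. It lies on chrXIV:172588-174315 on the minus strand (assembly R64) as a single coding exon of 1728 bases, and no annotated gene overlaps it. Its first 300 coding bases are shown because the early termination sites known at this gene lie around its start, and capitals mark the short motifs that Nrd1 (GTAA, GTAG) and Nab3 (TCTT, CTTG) are known to bind in the RNA. The letters are those of the reference strain S288C, on the coding strand, from chrXIV:174016-174315.
NRD1: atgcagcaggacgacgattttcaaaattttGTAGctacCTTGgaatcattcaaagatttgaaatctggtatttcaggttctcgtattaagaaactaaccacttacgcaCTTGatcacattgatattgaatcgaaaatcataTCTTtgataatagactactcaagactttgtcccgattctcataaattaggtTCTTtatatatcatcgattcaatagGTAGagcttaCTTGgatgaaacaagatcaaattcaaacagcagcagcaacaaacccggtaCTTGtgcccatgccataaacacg
This stretch held 6 Nab3 motifs and 2 Nrd1 motifs on the coding strand. Of 5710 nuclear open reading frames (ORFs) of at least 300 bases, 5.64% held 8 or more of these motifs in their first 300 bases, and the median was 4. Nab3 motifs alone numbered 6 or more in 5.22% of the ORFs. The opposite strand of the same stretch held 10, where 28.1% of ORFs held as many or more. In the 250 bases before the start codon there were 3 on the coding strand, where 84.3% of ORFs held as many or more. The opposite strand of that window held 10, where 5.48% of ORFs held as many or more. Of these 10, 6 were Nrd1 motifs (1.59% of ORFs held as many or more). On the coding strand, the GTAG nearest to the start codon in that window began 98 bases before it, within this stretch of 30 bases (chrXIV:174397-174426).
NRD1 upstream: atttttttgtattGTAGttttctctgatta
A match to 4 letters is a description of the sequence and not of a bound site, and motifs may overlap, as TCTT and CTTG do in TCTTG.

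In wild-type cells NRD1 was detected at 126 and 139 CPM, from 6423 and 7149 counts. In trf4Δ cells it reached 789 and 683 CPM, from 47509 and 41098 counts. Both trf4Δ libraries were thus far above both wild-type libraries, and the gap between the groups exceeded the difference within either group. Wild-type cells had a mean of 133 ± 9.31 CPM (SD, n = 2), and the mean of trf4Δ cells was 736 ± 74.8 CPM (SD, n = 2). This was a log2 fold change of 2.47 (SE 0.11), that is a 5.55-fold higher level with a 95% interval of 4.63 to 6.64. The quasi-likelihood test of edgeR, adjusted over all features tested by the Benjamini-Hochberg method, gave an adjusted p of 7.21e-06. NRD1 was the only one of the 5 genes called higher in this test, where 31.3% of all features were called higher, and 0 of the 5 were called lower, where 28.9% of all features were. None of the 5 was called lower by DESeq2 either, and 0 of the 5 had a negative log2 fold change with an unadjusted p under 0.05.

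**Figure D1:**
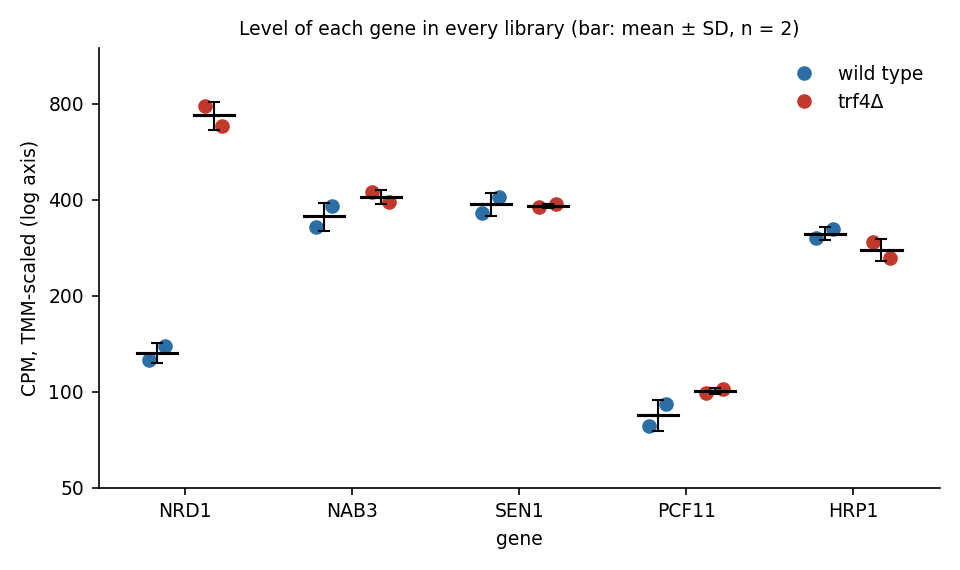
CPM (TMM-scaled, log axis) of the 5 genes in each library, wild type in blue and trf4Δ in red, with the mean ± SD of 2 libraries as black bars. NRD1 stood at 126 and 139 CPM in the wild type and at 789 and 683 CPM in trf4Δ, whereas the other 4 genes lay close together in the strains.

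NAB3 encodes the RNA-binding partner of Nrd1, with which it forms a heterodimer. The gene lies on chrXVI:185317-187725, minus strand, and has 2409 coding bases. Its level was 423 and 394 CPM in trf4Δ and 329 and 381 CPM in the wild type. The trf4Δ libraries were the higher pair, but the gap to the nearest wild-type library was smaller than the difference between the wild-type libraries. The log2 fold change was 0.20 (SE 0.10), with a 95% interval of -0.04 to 0.44 and an adjusted p of 0.125 (edgeR). It ranged from 0.10 without the first wild-type library to 0.32 without the second, with no call. A change as large as that of NRD1 was therefore outside the interval for its partner. In its first 300 coding bases NAB3 held 2 Nrd1 motifs and no Nab3 motif, and 84.3% of ORFs held at least 1 Nab3 motif there.

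SEN1 encodes the helicase of the complex. It lies on chrXII:993434-1000129, plus strand, and its 6696 coding bases make it the longest of the 5 genes. Its level was 380 and 387 CPM in trf4Δ and 364 and 410 CPM in the wild type. Both trf4Δ values fell between the wild-type values, so the groups overlapped. The log2 fold change was -0.01 (SE 0.09), with a 95% interval of -0.23 to 0.20 and an adjusted p of 0.909 (edgeR). SEN1 held 2 of the 4-letter motifs in its first 300 coding bases, fewer than the median ORF.

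PCF11 encodes a subunit of cleavage factor I with a CTD-interacting domain. It lies on chrIV:921926-923806, minus strand, with 1881 coding bases, and was the least abundant of the 5 genes. Its level was 99.0 and 102 CPM in trf4Δ and 78.3 and 91.5 CPM in the wild type. The groups did not overlap, but the distance between them was smaller than that between the wild-type libraries. The log2 fold change was 0.24 (SE 0.10), with a 95% interval of 0.01 to 0.48 before adjustment and an adjusted p of 0.0717 (edgeR), which missed the threshold of 0.05. Without the second wild-type library it was 0.37, with an adjusted p of 0.0416, and over all fits without 1 library it ranged from 0.14 to 0.37. Its first 300 coding bases held 7 motifs (11.1% of ORFs held as many or more).

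HRP1 encodes an RNA-binding protein of cleavage factor I that moves between nucleus and cytoplasm. It lies on chrXV:87844-89448, plus strand, with 1605 coding bases. HRP1 stood at 295 and 263 CPM in trf4Δ and at 303 and 324 CPM in the wild type. Here the trf4Δ libraries were the lower pair, though the nearest values of the groups were closer to each other than the libraries within either group. The log2 fold change was -0.17 (SE 0.09), with a 95% interval of -0.39 to 0.05 and an adjusted p of 0.156 (edgeR). Leaving out trf4Δ library 1 gave -0.25 and leaving out trf4Δ library 2 gave -0.09, both without a call. The start of HRP1 is shown beside that of NRD1 because attenuation is known for both genes, while only NRD1 was called higher (chrXV:87844-88143, same marking).
HRP1: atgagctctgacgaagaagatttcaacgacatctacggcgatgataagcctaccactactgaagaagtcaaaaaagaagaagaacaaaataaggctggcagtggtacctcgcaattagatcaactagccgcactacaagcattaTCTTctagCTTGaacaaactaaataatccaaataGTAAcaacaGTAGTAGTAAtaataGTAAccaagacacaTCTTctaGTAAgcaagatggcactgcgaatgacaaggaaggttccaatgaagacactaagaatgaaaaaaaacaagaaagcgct
HRP1 held 9 motifs on the coding strand of this stretch, more than the 8 of NRD1, and 2.43% of ORFs held as many or more. The make-up differed, since 6 of the 9 were Nrd1 motifs in HRP1 (1.03% of ORFs held as many or more), with first letters between bases 179 and 224 of the coding sequence and partly overlapping, against 2 in NRD1. The opposite strand of the HRP1 stretch held 20 (0.333% of ORFs held as many or more). A high number of these letters near the start thus went with a called change in NRD1 and not in HRP1. PCF11, with 7 on the coding strand, was not called in the reported fit either.

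Groups that did not overlap in CPM were found for 4 of the 5 genes (all but SEN1). This was also the case for 81.9% of all features tested, so it sets the 4 genes apart in no way. With 2 libraries in each group no exact permutation test can pass the threshold, and single genes were tested only within the model fitted across all features.

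How the libraries are scaled moved all 5 values by a like amount, and it changed the calls of NAB3, PCF11 and SEN1 but not those of NRD1 and HRP1. With library size alone, the median over all features moved from 0.01 to 0.34 on the log2 scale. NRD1 then stood at 2.79 and was still called. NAB3 stood at 0.52 (adjusted p 0.00338), PCF11 at 0.57 (adjusted p 0.0020) and SEN1 at 0.31 (adjusted p 0.0203), all called higher by edgeR, and HRP1 turned to 0.15 without a call. Since a scaling moves all features by a like amount, the values relative to the median of all features were bound to be nearly the same. They were 2.46 and 2.46 for NRD1, 0.19 and 0.19 for NAB3, 0.23 and 0.23 for PCF11, -0.03 and -0.03 for SEN1 and -0.18 and -0.18 for HRP1, with TMM and with library size alone. The call for NRD1 held under each of the 11 alternatives, between 2.36 and 2.79.

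**Figure D2:**
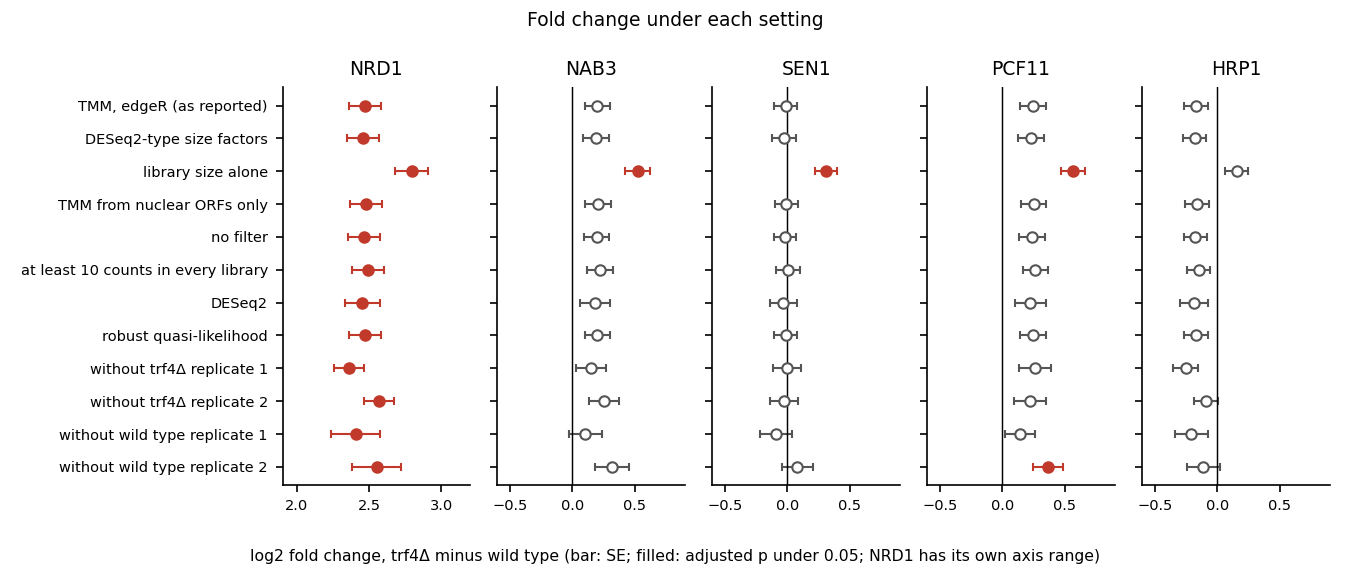
Log2 fold change of each gene (horizontal axis, trf4Δ minus wild type, bar: SE) under the reported fit and 11 alternatives (rows), filled where the adjusted p was under 0.05. NRD1, on its own axis range, stayed between 2.36 and 2.79 and was called in each row, and all 5 genes shifted to higher values with library size alone.

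Ratios between genes within a library do not depend on any scaling, and they were compared as counts per kilobase of coding sequence. NRD1 was present at 0.534 and 0.509 times the level of its partner NAB3 in the wild-type libraries. In trf4Δ the ratio was 2.60 and 2.42. The order of the partners was therefore inverted in both trf4Δ libraries, a 4.81-fold higher ratio (2.27 on the log2 scale, with a pooled SD of 0.0624 within groups). Relative to SEN1 the ratio of NRD1 moved from 1.34 and 1.32 to 8.05 and 6.84, and relative to HRP1 from 0.386 and 0.399 to 2.49 and 2.41.

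Among the other 4 genes the ratios to NAB3 differed much less. HRP1 was at 1.38 and 1.27 times NAB3 in the wild type and at 1.05 and 1.00 times in trf4Δ, so that the groups did not overlap. SEN1 was at 0.398 and 0.386 in the wild type and at 0.323 and 0.353 in trf4Δ, again without overlap. PCF11 had overlapping ratios, at 0.304 and 0.307 against 0.300 and 0.332. No test is given for these ratios, since an exact permutation of 2 libraries against 2 could not pass the threshold.

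**Figure D3:**
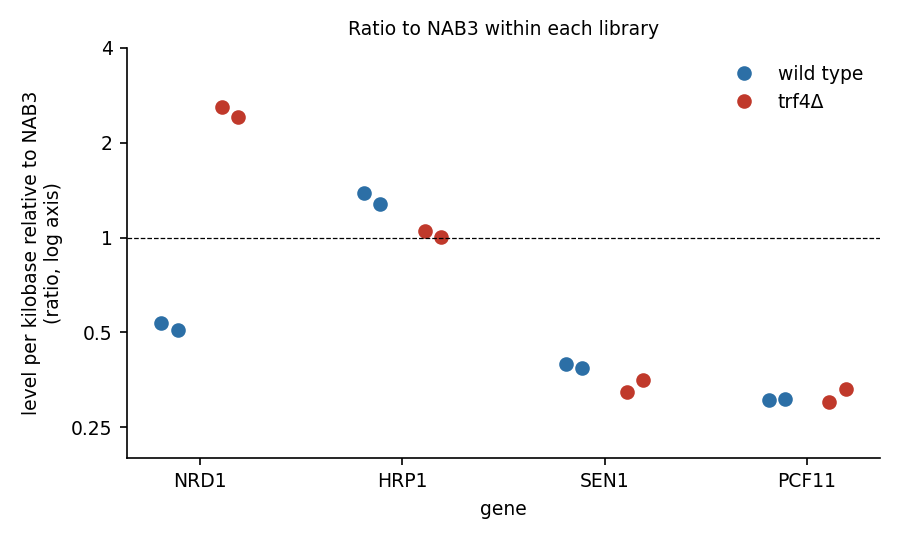
Level per kilobase of NRD1, HRP1, SEN1 and PCF11 relative to NAB3 within each library (ratio, log axis), wild type in blue and trf4Δ in red, with 1 point per library and a dashed line at equal levels. NRD1 moved from 0.534 and 0.509 to 2.60 and 2.42, across the line. HRP1 came close to the line in trf4Δ, at 1.05 and 1.00, and SEN1 and PCF11 stayed below it in all 4 libraries.

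The order of the genes by level per kilobase (CPM per kilobase of coding sequence) differed between the strains in the place of NRD1. In the wild type it was HRP1 with 195 ± 8.98 (SD, n = 2), NAB3 with 148 ± 15.3, NRD1 with 76.8 ± 5.39, SEN1 with 57.8 ± 4.79 and PCF11 with 45.1 ± 4.94, and no neighbours in this order overlapped. In trf4Δ it was NRD1 with 426 ± 43.3, HRP1 with 174 ± 13.8, NAB3 with 170 ± 8.57, SEN1 with 57.2 ± 0.775 and PCF11 with 53.4 ± 1.11. HRP1 and NAB3 overlapped there and could not be ordered. NRD1 moved from the third place to the first, and its part of the summed level of the 5 genes went from 14.7% and 14.6% to 49.3% and 47.3%. Among 5853 ORFs ranked by level per kilobase, NRD1 held ranks 2136 and 1962 in the wild type and ranks 268 and 346 in trf4Δ. Coverage need not be even along a gene, so levels per kilobase are approximate between genes.

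Across all features the direction of change went with abundance, so each gene is set beside the decile of features with a like mean level. NRD1, NAB3 and SEN1 were in the most abundant decile, 638 features with a median log2 fold change of -0.53, of which 49 were called higher and 448 lower. In that decile NRD1 ranked 2 by log2 fold change, after the glucan synthase gene FKS2 (listed as GSC2). NAB3 ranked 62 and SEN1 ranked 106, both above the median of the decile. HRP1 was in the second most abundant decile, with a median of -0.26, and ranked 262 of 637. The deciles were set by the mean over all 4 libraries. In the wild type NRD1 had a mean of 133 CPM, below the 314 CPM of HRP1. Its place in the most abundant decile, and so the rank of NRD1 there, rested on its trf4Δ level. PCF11 was in a decile with a median of -0.16 and ranked 132 of 637. Over all 6372 features tested NRD1 ranked 180 by log2 fold change and 16 by gain in CPM.

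**Figure D4:**
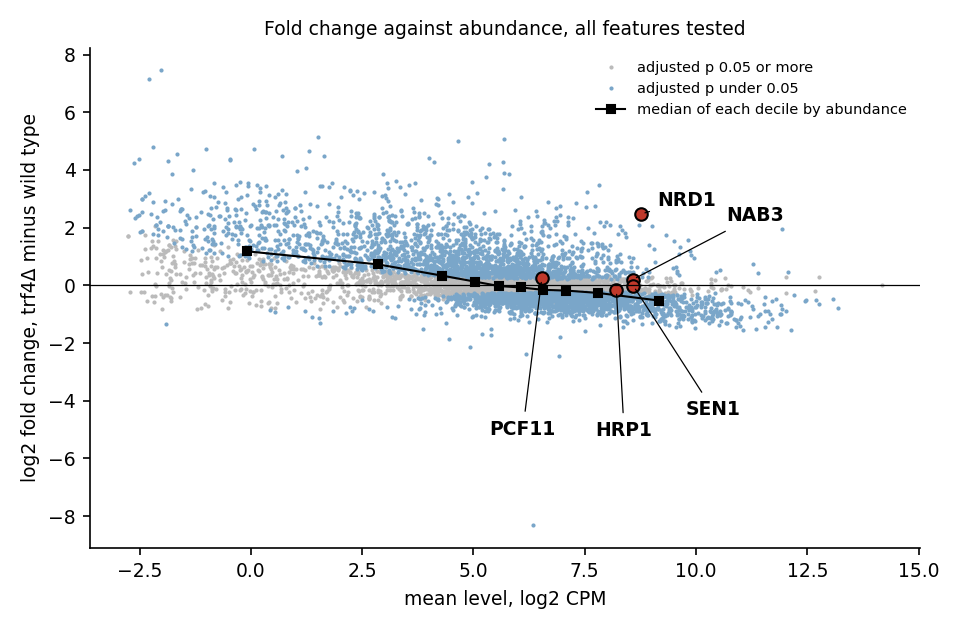
Log2 fold change (vertical axis, trf4Δ minus wild type) against mean log2 CPM (horizontal axis) for 6372 features, light blue where the adjusted p was under 0.05 and grey otherwise, with the median of each decile by abundance as black squares. NRD1 lies at 2.47 among abundant features whose median was -0.53, where its own trf4Δ level placed it, and the other 4 marked genes lie near 0.

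The genes on either side of the 5 were examined because no source says whether counting used strand, and reads of an antisense or neighbouring transcript could not be told from those of the gene. No gene annotated in RefSeq overlapped any of the 5. Downstream of NRD1, 301 bases away on the same strand, MRPL17, which encodes a mitochondrial ribosomal protein, fell to 2943 and 3577 counts from 6112 and 6202. Its log2 fold change was -1.15 (adjusted p 0.000131, edgeR). On the other side, 1094 bases away and transcribed in the opposite direction, the DNA repair gene RAD50 had a log2 fold change of -0.53 (adjusted p 0.00578, edgeR), and the call was lost with library size alone (-0.20, adjusted p 0.150) and without the first trf4Δ library (-0.43, adjusted p 0.0512). Neither neighbour of NRD1 was higher in trf4Δ, so the higher count of NRD1 did not extend to them.

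For the other genes the neighbours moved in both directions. MIY2, a deubiquitinase gene 637 bases downstream of NAB3 on the same strand, rose by a log2 fold change of 0.88 (adjusted p 0.000585, edgeR). SMF1, a metal transporter gene that converges on HRP1 with a gap of 243 bases, rose by 0.72 (adjusted p 0.000821), and TRM11, a tRNA methyltransferase gene upstream of HRP1, had -0.66 (adjusted p 0.000958). SIR4, a silencing gene that converges on PCF11, had -0.31 (adjusted p 0.0244), and this call was lost with library size alone (0.01, adjusted p 0.928) and in 3 of 4 fits without 1 library (adjusted p of 0.0617 to 0.178). The neighbours COA2, CRN1, ATG23 and IVY1 were not called, with log2 fold changes from -0.13 to 0.18, though with library size alone ATG23 (0.50, adjusted p 0.0117) and IVY1 (0.37, adjusted p 0.00977) were.

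The features most like NRD1 over the 4 libraries were found by the distance between log2 CPM profiles, each centred on its own mean. Of 6371 other features the nearest was GTO3, an omega-class glutathione transferase gene, at a distance of 0.100 and with a log2 fold change of 2.40. SNR48, a box C/D small nucleolar RNA, followed at 0.157 with 2.57. Next came FKS3, a gene of the glucan synthase family, at 0.159 with 2.42, and NGL3, a gene related to endonucleases, at 0.180 with 2.52. ACA1, a transcription factor gene of the ATF/CREB type, stood at 0.186 with 2.38. The median distance over all features was 2.47. With 4 libraries in 2 groups, this measure picks features with a like fold change and a like order of replicates, and each of the 5 was less abundant than NRD1 (at most 193 CPM in any library).

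Genes of the wider termination machinery were grouped by function, and their counts are to be read against the 31.3% of all features called higher and the 28.9% called lower. Abundant features were more often lower, with 448 of 638 called lower and 49 called higher in the most abundant decile. The lists were not matched for abundance, so a list with many lower genes was not told apart from this general trend. Of 18 other subunits of the cleavage and polyadenylation factors, 3 were higher, 6 were lower and 9 were not called, with a median log2 fold change of 0.05 beside 0.01 for all features. The share called lower was near that of all features, and the share called higher was below it. Without the first or the second wild-type library 3 were lower, and without either trf4Δ library 4, and the median ranged from -0.02 to 0.14. The highest were PTI1 (0.86, adjusted p 0.000667, edgeR) and the CTD phosphatase gene SSU72 (0.72, adjusted p 0.00245, edgeR). The lowest were RNA14 (-0.43), a partner of Pcf11 in cleavage factor I, and YSH1 (-0.42), the endonuclease that cuts the transcript. Their calls were lost with library size alone (-0.11 and -0.10). With library size alone 11 of the 18 were higher and 0 were lower in edgeR.

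The torpedo factors, which degrade the RNA left on the polymerase after cleavage, had 2 of 3 genes lower, RAI1 (-0.62) and the exonuclease gene RAT1 (-0.55), and 0 higher, where 28.9% of all features were lower and 31.3% higher. Of 17 genes for CTD enzymes and elongation factors, 9 were lower and 0 higher (28.9% and 31.3% of all features), with a median of -0.30. Without the second wild-type library 5 were lower. The histone methyltransferase genes SET2 (-0.83) and SET1 (-0.61) were the lowest of these. KIN28 (-0.30) and PAF1 (-0.26) were the smallest changes called, and with library size alone they turned to 0.02 and 0.06 without a call, and at least 3 of the 4 fits without 1 library lost each call. Of 12 genes for subunits of RNA polymerase II, 10 were lower and 0 higher (28.9% and 31.3% of all features), with a median of -0.59. Abundance was not matched here either. The most abundant decile of all features had a median of -0.53, that of HRP1 -0.26 and that of PCF11 -0.16. RPB2 (593 to 793 CPM) was more abundant than HRP1 in all 4 libraries. RPB3 (16.9 to 27.8 CPM) and RPB9 (44.6 to 73.5 CPM) were less abundant than PCF11 in all 4, so the value of -0.53 does not apply to the whole list. Among the polymerase subunits RPO26 (-1.31) and RPB8 (-0.86) are shared with the other nuclear polymerases. RPB2 (-0.37) and RPB4 (-0.38) were the smallest changes called and lost the call with library size alone (-0.05 in each), RPB2 also without either wild-type library (adjusted p 0.0736 and 0.0514).

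Of 14 genes for nuclear mRNA-binding and export proteins, the functional neighbours of HRP1, 6 were lower and 0 higher, where 28.9% and 31.3% of all features were, and 8 were not called, with a median of -0.19. Leaving out trf4Δ library 1 gave a median of -0.32, and 5 or 6 genes were lower in each fit without 1 library. STO1 (-0.65) and CBC2 (-0.49) encode the nuclear cap-binding complex, SUB2 (-0.64) an export helicase and GBP2 (-0.44) an mRNA-binding protein. CBC2 (-0.17) and GBP2 (-0.12) lost the call with library size alone, and GBP2 also without the first trf4Δ library (adjusted p 0.0549) or the first wild-type library (adjusted p 0.0608). With library size alone, 3 of the 14 were higher and 3 lower, 2 of 17 and 2 of 17 for the CTD and elongation factors, and 2 of 12 and 5 of 12 for the polymerase subunits.

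Other genes known to be attenuated through Nrd1, Nab3 and Sen1 were set beside NRD1 and HRP1. Of 7 such genes, 3 were higher and 1 was lower, where 31.3% and 28.9% of all features were, and 3 were not called. The median was 0.09, and it ranged from 0.03 without the second trf4Δ library to 0.25 without the first. FKS2 rose from 8104 and 7577 counts to 79871 and 83413, a log2 fold change of 3.14 (adjusted p 2.02e-06, edgeR). URA8, a CTP synthase gene, rose by 1.81, and IMD2, an IMP dehydrogenase gene, rose by 0.46. IMD3, a close copy of IMD2 with which reads may be shared, had -0.85. URA2 (-0.15), ADE12 (0.09) and DEF1 (-0.06) were not called, and neither was HRP1. With library size alone ADE12 was called too (0.41, adjusted p 0.0192, edgeR). Of the 7 genes 4 were then higher and 1 lower, where 3162 of all 6372 features were higher and 739 lower. With so few genes these counts show no more than the values of the single genes, of which NRD1, FKS2 and URA8 had log2 fold changes above 1.

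**Figure D5:**
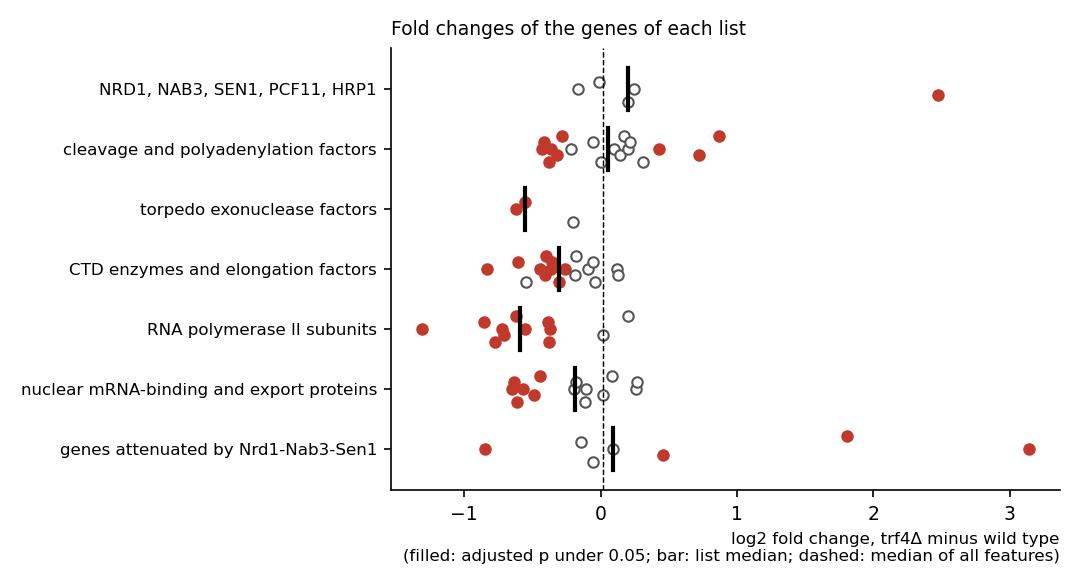
Log2 fold change (horizontal axis, trf4Δ minus wild type) of the 5 genes and of each list of related genes, filled where the adjusted p was under 0.05, with black bars for list medians and a dashed line at the median of all features, 0.01. NRD1 (2.47), FKS2 (3.14) and URA8 (1.81) are the highest and RPO26 (-1.31) is the lowest. The RNA polymerase II subunits have the lowest median, -0.59.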

How the data were processed

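RNA was measured by sequencing in 2 trf4Δ and 2 wild-type yeast libraries. The authors deposited a table of raw counts per feature, without normalisation, as whole numbers with 1 column per library. The submitters' processing notes name STAR 2.5.3 and the build sacCer3, to which the R64 assembly used here for positions and sequences corresponds. The counting program, the annotation and the strand setting are not given in the sources used here. The paper supplied with the series concerns other samples, and nothing was taken from it.

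The analysis used edgeR 4.0.16 under R 4.3.3. The filterByExpr function kept 6372 of 7445 features, and TMM factors were 0.885 to 1.12. A quasi-likelihood model (glmQLFit, glmQLFTest) of genotype alone was fitted to the 4 libraries and tested two-sided, and p-values were adjusted over all features by the Benjamini-Hochberg method (threshold 0.05). Each SE was derived from the F statistic, and intervals are 95% intervals on 7.62 degrees of freedom. Tested on simulated data over 6342 genes, the fit recovered 97.7% of changes of at least 1 and 44.1% of changes of 0.5 on the log2 scale, with 7.1% false calls. In that simulation 198 genes were changed and all genes had the same dispersion. Far more features were called in the real data (1992 higher and 1840 lower), so these rates need not hold there.

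Library numbers within a group follow accession order and pair nothing. Alternatives were other scalings (DESeq2-type size factors, library size alone, TMM from nuclear ORFs), other filters (none, or at least 10 counts in every library), robust fitting, DESeq2 1.42.0 and leaving out each library. Named were the 5 genes, their neighbours, the 2 highest and 2 lowest called genes of each list, and the 5 features nearest to NRD1 in log2 CPM (prior count 2). The genes and lists were chosen with earlier results of these data known. Coding lengths, positions and sequences come from RefSeq R64 (Python 3.11.15, Biopython 1.88). Protein sequences were not used here.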

Additional observations from a re-analysis of the deposited data

How the results depend on the processing

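Under the alternative fits the NRD1 call held throughout, and none of the 5 genes was called lower in any of them. Library size alone, without a scaling factor, moved the most values. NAB3 rose to 0.52 and PCF11 to 0.57, each now called, SEN1 turned to 0.31 with a call and HRP1 turned to 0.15 without one. The genes called higher among the 5 were then 4 in place of 1, and all features called were 3162 higher and 739 lower in place of 1992 and 1840. The other scalings, the filters, robust fitting and DESeq2 changed no call of the 5 genes, and with at least 10 counts in every library SEN1 turned from -0.01 to 0.0061, without a call. Without 1 library, NAB3 ranged from 0.10 to 0.32 and HRP1 from -0.25 to -0.09, neither with a call, SEN1 from -0.091 to 0.080, PCF11 from 0.14 to 0.37 with a call only without the second wild-type library, and the genes called higher were 1 or 2. In those fits 1 library stood alone in its group and was assumed to vary like the other group. The ratio of NRD1 to NAB3 ranged from 2.21 to 2.32 on the log2 scale in the same fits. No paired analysis was possible because the labels give the libraries no shared numbers. The cause of these shifts was not tested, beyond the move of the median of all features by the scaling itself. With 2 libraries a group, changes of 0.5 on the log2 scale were often missed in simulated data, and the small differences of NAB3, PCF11 and HRP1 were below that size. Far fewer genes were changed in the simulation than were called in the real data, where smaller changes such as PAF1 (-0.26) were called. How often changes of this size were missed in the real data was therefore not measured.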
